A study of Mus musculus with 6 samples.

Results

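Matricellular proteins and fibronectin were followed on 6 Agilent 2-colour arrays through every probe of the array that carries 1 of 10 gene names: Thbs1, Thbs2, Tnc, Sparc, Postn, Fn1, Spp1, Fstl1, Bgn and Fbln2. Probes were matched by gene name, and the genes themselves were chosen with earlier results of these data known. Of these names 9 had a probe and Thbs1 was not analysed here. Tnc had 2 probes, which gave 10 probes of 20868 on the array, each printed as 1 spot. All 10 were among the 19752 probes tested, those whose signal in some channel was well above background on 2 or more arrays.

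Matricellular proteins are secreted into the extracellular matrix, where they bind matrix fibres, growth factors and cell surface receptors and tune adhesion rather than bear load. Fibronectin, encoded by Fn1, is an adhesive glycoprotein that cells assemble into fibrils through integrins, and many matricellular proteins bind it. Fibronectin, osteopontin, tenascin C and Sparc are often measured in epithelial-mesenchymal transition, the loss of epithelial character that Snail, a zinc-finger repressor encoded by Snai1, can drive. Loxl2 is a secreted lysyl oxidase-like enzyme.

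The groups were mouse HACA cells carrying a short hairpin RNA against Snail (shSnail), HACA cells carrying one against Loxl2 (shLoxl2), and control HACA cells carrying one against GFP (shGFP). The labels do not give the tissue behind HACA cells, whether a line was a clone, or whether replicates were separate cultures, so p-values measure only the spread between these samples, which may be technical. Each array held silenced RNA in one channel and shGFP RNA in the other. Both shSnail arrays had the silenced RNA in Cy5 (n = 2). The 4 shLoxl2 arrays were a dye swap of each of 2 replicate numbers, averaged before testing (n = 2). shGFP counted as 1 control sample, so tests against it leave out the control's own spread. Per the file headers, the shSnail and shLoxl2 arrays were scanned on different days with different versions of the extraction protocol, so in shSnail against shLoxl2 the scan day and the group cannot be told apart.

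Per array, 85.4% to 92.4% of spots rose well above background in Cy5 and 55.9% to 74.9% in Cy3, and precision is limited by how few arrays there were. A dye effect, the share of a ratio that stays when the dyes are swapped, varied over tested probes with an SD of 0.46 log2 units. Snai1 signal did not stand well above background on the shSnail arrays, whichever the channel. Loxl2 had a log2 fold change of 0.11 in shLoxl2 cells (limma adjusted p = 0.59), but its ratios followed the dye. They were -1.30 and -0.68 with the silenced RNA in Cy5 and 1.38 and 1.04 with it in Cy3. On no shLoxl2 array were both Loxl2 channels well above background, so neither the Snai1 nor the Loxl2 probe checks the labels. Of all tested probes, 8.81% rose and 12.6% fell in shSnail cells at a limma adjusted p below 0.05. In shLoxl2 cells 8.08% rose and 5.85% fell. Among 8 keratinocyte and epithelial markers, 1 rose and 3 fell in shSnail cells, and 2 rose and 2 fell in shLoxl2 cells. Their summed intensity was 100903 and 102453 in the shSnail channels, against 169717 and 186554 in the shGFP channels of the same arrays. On the shLoxl2 arrays the sum followed the dye. With the silenced RNA in Cy5 it was 115370 and 136591 in shLoxl2, against 155755 and 189418 in shGFP, and with it in Cy3 it was 152158 and 164488 in shLoxl2, against 145286 and 134632 in shGFP. Both shSnail arrays had the silenced RNA in Cy5. The part of these sums in the changes below was not tested. Of 8 fibroblast and stromal markers, whose summed intensity was 1403 to 1526 in shSnail, 1251 to 1554 in shLoxl2 and 1494 to 1927 in shGFP channels, Pdgfra fell in both silenced groups, and Thy1 passed upward in shSnail cells without standing well above background there. Of 8 leukocyte markers, Cd68 rose in shLoxl2 cells, and none of 5 endothelial markers passed in either group by limma. In bulk RNA, fewer cells of a type and less RNA per cell cannot be told apart.

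RefSeq (assembly GRCm38.p6) gave upstream sequence for 8 of the members, 11 promoters in all. Fn1 and Thbs1 had none among the sequences used, so their promoters were not searched. The stretches below belong to Spp1 and Thbs2, which were lower in shSnail than in shLoxl2 cells, and to Tnc and Fstl1, which fell in both. Each is the 250 bases before an annotated start, 5′ to 3′ on the gene's strand, at chr5:104434861-104435110 (Spp1, plus strand), chr17:14694263-14694512 (Thbs2, minus strand), chr4:64047016-64047265 (Tnc, minus strand) and chr16:37776805-37777054 (Fstl1, plus strand). Capitals mark CAGGTG, the E-box that Snail proteins prefer, or TATAAA, the letters of the TATA box motif, on either strand and at any position.
Spp1: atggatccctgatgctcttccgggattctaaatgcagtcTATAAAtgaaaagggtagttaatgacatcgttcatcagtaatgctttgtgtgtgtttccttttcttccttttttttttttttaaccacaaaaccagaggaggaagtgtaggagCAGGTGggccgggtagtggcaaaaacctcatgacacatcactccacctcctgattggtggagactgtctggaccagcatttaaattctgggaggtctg
Thbs2: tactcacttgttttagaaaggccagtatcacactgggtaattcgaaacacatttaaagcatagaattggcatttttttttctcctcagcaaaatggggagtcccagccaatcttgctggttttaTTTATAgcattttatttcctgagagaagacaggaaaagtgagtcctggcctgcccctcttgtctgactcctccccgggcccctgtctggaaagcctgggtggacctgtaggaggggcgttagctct
Tnc: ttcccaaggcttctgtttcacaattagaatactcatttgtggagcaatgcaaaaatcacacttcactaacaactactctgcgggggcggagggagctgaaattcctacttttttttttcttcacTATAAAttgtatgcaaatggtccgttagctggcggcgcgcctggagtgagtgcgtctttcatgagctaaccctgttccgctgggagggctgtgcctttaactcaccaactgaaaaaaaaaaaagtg
Fstl1: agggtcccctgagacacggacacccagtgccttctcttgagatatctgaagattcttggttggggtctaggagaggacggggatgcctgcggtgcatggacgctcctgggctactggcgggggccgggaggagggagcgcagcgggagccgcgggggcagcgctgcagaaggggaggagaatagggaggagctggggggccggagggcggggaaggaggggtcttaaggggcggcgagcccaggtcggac
CAGGTG lay in 1 of the 11 member promoters, that of Spp1 at 98 bases before the start, and in 17.2% of all 32851 promoters of this length. TATAAA lay in 5 of the 11, against 12.4% of all promoters. The pair of Tnc windows overlap and hold the same TATAAA, so there were 4 distinct sites. Relative to the start, TATAAA began at -126 in Thbs2 (opposite strand), -126 and -205 in the Tnc windows and -211 in Spp1. In a Postn promoter, not printed here, it began at -26. Whether any of these acts as a TATA box was not tested. The AP-1 motif TGANTCA lay in 0 of the 11, against 6.75% of all. These are matches of letters within these windows only.

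Fibronectin and osteopontin, both ligands of integrins, were among the members with the lowest values in shSnail cells. The Fn1 probe (chromosome 1, 71524056 to 71526293, minus strand, mm8) had log2 ratios over shGFP of -2.64 and -2.21 on the shSnail arrays. Among shLoxl2 arrays its ratios were -0.61 and 0.20 with the silenced RNA in Cy5 and -0.28 and 0.48 with it in Cy3. Both shSnail values lay below all 4 shLoxl2 values, and the shLoxl2 values fell on both sides of 0. Fn1 was 4.83-fold lower in shSnail than in shGFP cells (limma, log2 fold change -2.27 with SE 0.28, n = 2, adjusted p = 0.00356). In shLoxl2 against shGFP its log2 fold change was -0.05 (SE 0.21, n = 2, limma adjusted p = 0.894), with a 95% interval from -0.58 to 0.47. Replicate 1 of shLoxl2 averaged -0.45 and replicate 2 averaged 0.34, so the replicates differed in sign.

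Spp1 encodes osteopontin, a secreted phosphoprotein that also binds CD44. Its probe (chromosome 5, 104681071 to 104681130, plus strand, mm8) had log2 ratios of -2.97 and -2.55 on the shSnail arrays. Its shLoxl2 ratios were -0.90 and -0.03 with the silenced RNA in Cy5 and 0.81 and 1.28 with it in Cy3. The shLoxl2 ratios thus changed sign with the dye. The Cy5 channel of this spot was saturated on all 4 shLoxl2 arrays and on neither shSnail array. Spp1 was 4.01-fold lower in shSnail than in shGFP cells (limma, SE 0.26 on the log2 scale, n = 2, adjusted p = 0.00405) with the dye effect removed in full. That effect, -0.76 for Spp1, was taken from the saturated shLoxl2 arrays, and without its removal the log2 fold change was -2.76 (limma adjusted p = 0.000899). In shLoxl2 against shGFP the value was 0.29 (SE 0.19, limma adjusted p = 0.39), which rests on a saturated channel on each array.

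**Figure D1:**
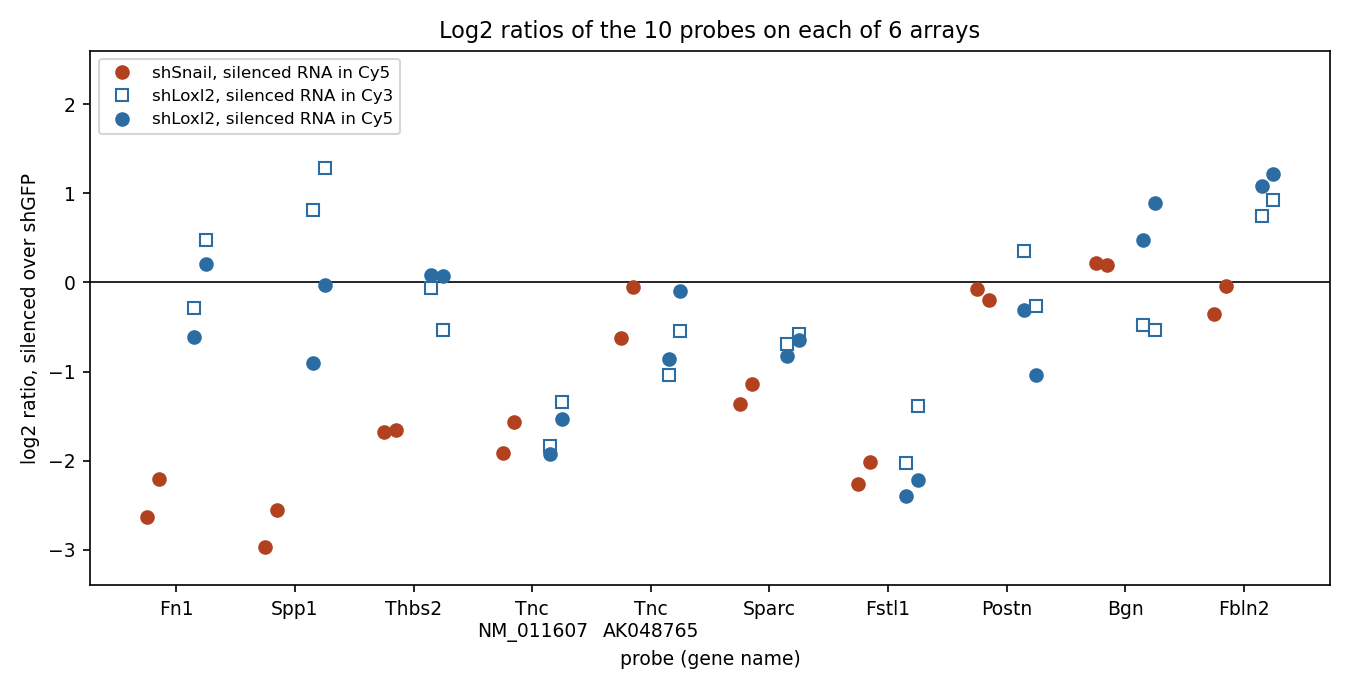
Log2 ratio of silenced over shGFP RNA for each of the 10 probes (x axis) on each array (points), shSnail to the left and shLoxl2 to the right of each probe name, with filled circles for silenced RNA in Cy5 and open squares for Cy3. Fn1, Spp1, Thbs2, Sparc and Fbln2 have both shSnail arrays below all 4 shLoxl2 arrays, and the shLoxl2 values of Spp1 and Bgn separate by dye. The share of all tested probes ordered this way was not counted, and the 4 shLoxl2 arrays are dye swaps of 2 replicates. For Sparc the direct difference between the silenced groups did not pass (limma adjusted p = 0.115).

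Thrombospondin 2 and tenascin C are large oligomeric glycoproteins that modulate adhesion, and thrombospondin 2 is also an inhibitor of angiogenesis. The Thbs2 probe (chromosome 17, 14403751 to 14403810, minus strand, mm8) had log2 ratios of -1.68 and -1.66 on the shSnail arrays. In shLoxl2 they were 0.08 and 0.07 in Cy5 and -0.06 and -0.53 in Cy3. The shSnail values lay far below the shLoxl2 values, with no overlap. Thbs2 was 3.62-fold lower in shSnail than in shGFP cells (limma, log2 fold change -1.85 with SE 0.16, n = 2, adjusted p = 0.00144). In shLoxl2 against shGFP its log2 fold change was -0.11, with a 95% interval from -0.40 to 0.18 (limma adjusted p = 0.582).

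Tnc was read by a probe designed on NM_011607 (chromosome 4, 63446699 to 63446759, minus strand, mm8) and by another on AK048765 (63471205 to 63471264, same strand), 24446 bases apart. The NM_011607 probe had log2 ratios of -1.91 and -1.57 on the shSnail arrays. Its shLoxl2 ratios were -1.92 and -1.53 in Cy5 and -1.83 and -1.34 in Cy3. All 6 ratios were below -1 and the 2 silenced groups overlapped. Tnc by this probe was 3.19-fold lower in shSnail than in shGFP cells (limma, log2 fold change -1.67 with SE 0.20, n = 2, adjusted p = 0.00336). It was 3.15-fold lower in shLoxl2 than in shGFP cells (limma, log2 fold change -1.66 with SE 0.16, n = 2, adjusted p = 0.00335). The AK048765 probe was negative on all 6 arrays as well, with ratios from -0.63 to -0.05 in shSnail and from -1.04 to -0.09 in shLoxl2. It did not pass in shSnail cells (-0.50, limma adjusted p = 0.237) or in shLoxl2 cells (-0.64, limma adjusted p = 0.106).

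Sparc and Fstl1 encode related secreted glycoproteins. Sparc binds collagen, and Fstl1 is a follistatin-like member of the same family. The Sparc probe (chromosome 11, 55237934 to 55237993, minus strand, mm8) had log2 ratios of -1.36 and -1.14 on the shSnail arrays. In shLoxl2 they were -0.83 and -0.64 in Cy5 and -0.69 and -0.58 in Cy3. Every array was below 0, and the shSnail values lay below all shLoxl2 values. Sparc was 2.30-fold lower in shSnail than in shGFP cells (limma, log2 fold change -1.20 with SE 0.15, n = 2, adjusted p = 0.00365). It was 1.61-fold lower in shLoxl2 than in shGFP cells (limma, log2 fold change -0.69 with SE 0.12, n = 2, adjusted p = 0.0176). The shLoxl2 call ended without shLoxl2 replicate 1, at a log2 fold change of -0.61 (limma adjusted p = 0.0739), and with the scanner software's own ratios, at -0.76 (limma adjusted p = 0.0838).

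The Fstl1 probe (chromosome 16, 37754746 to 37754805, plus strand, mm8) had log2 ratios of -2.27 and -2.01 on the shSnail arrays. The 4 shLoxl2 ratios were -2.40 and -2.22 in Cy5 and -2.02 and -1.38 in Cy3. All 6 arrays were far below 0 and the groups overlapped. Fstl1 was 3.57-fold lower in shSnail than in shGFP cells (limma, log2 fold change -1.84 with SE 0.20, n = 2, adjusted p = 0.00233). It was 4.02-fold lower in shLoxl2 than in shGFP cells (limma, log2 fold change -2.01 with SE 0.14, n = 2, adjusted p = 0.0018). The shLoxl2 channel was well above background on 2 of 4 arrays, those in Cy5, and the size of the change moved with the background correction. Without background subtraction the log2 fold change was -1.27 in shSnail and -0.87 in shLoxl2 cells, and with the scanner software's ratios it was -3.22 and -3.83.

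**Figure D2:**
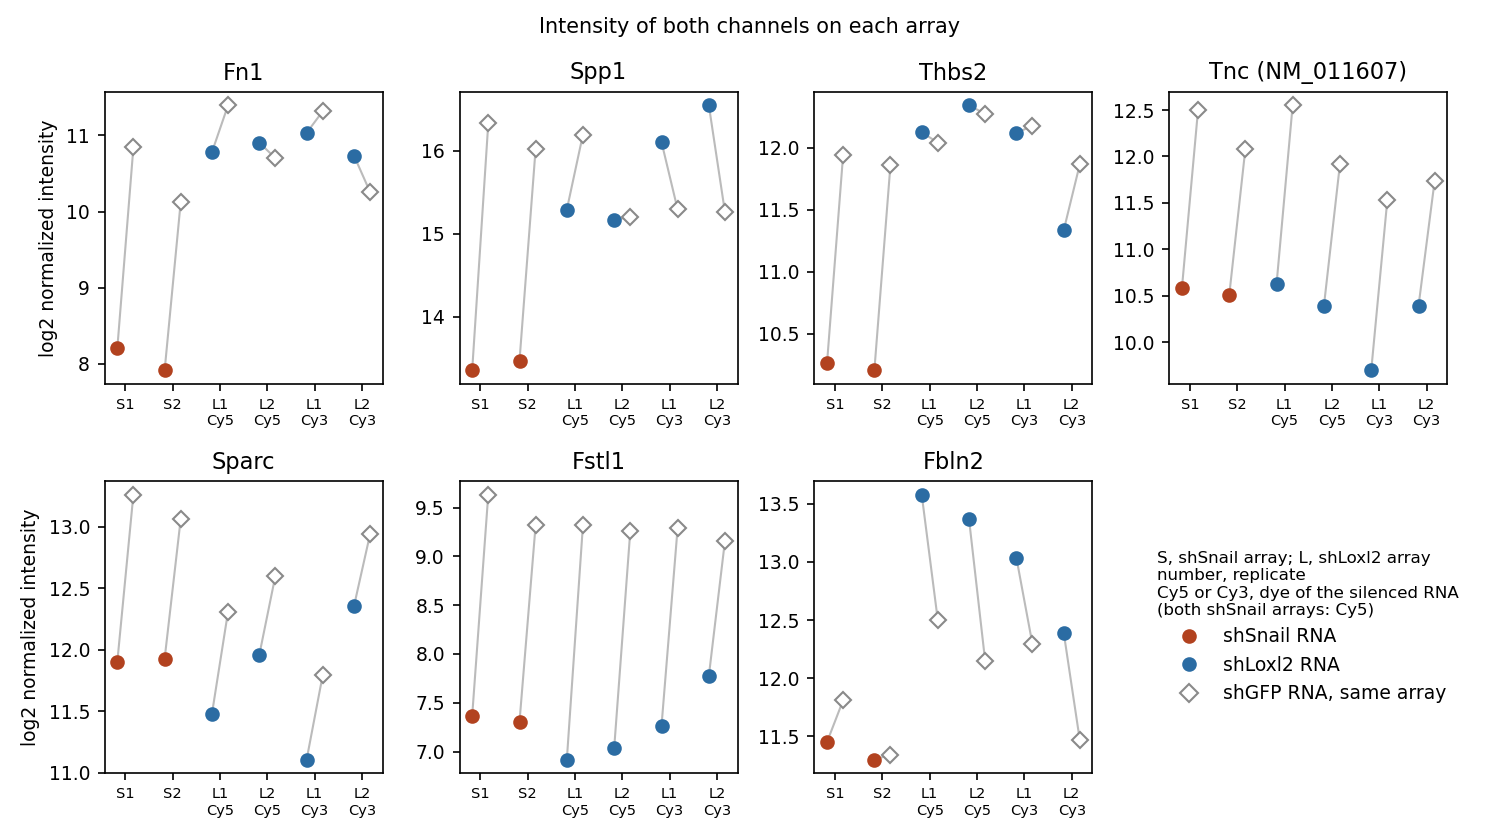
Log2 normalized intensity of both channels on each array for 7 probes, with the silenced RNA (filled) left of the shGFP RNA of the same array (open diamond) and scales that differ between panels. In the Tnc and Fstl1 panels the silenced RNA is the dimmer of each pair on all 6 arrays, while for Fn1 and Thbs2 the gap is wide on the 2 shSnail arrays.

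The remaining members were periostin, biglycan and fibulin-2. Fibulin-2 is a calcium-binding glycoprotein that binds fibronectin and basement membrane proteins. The Fbln2 probe (chromosome 6, 91237968 to 91238027, plus strand, mm8) had log2 ratios of -0.36 and -0.04 on the shSnail arrays. On the shLoxl2 arrays they were 1.08 and 1.22 in Cy5 and 0.74 and 0.92 in Cy3. The signs of the 2 silenced groups were opposite on every array. Fbln2 was 1.99-fold higher in shLoxl2 than in shGFP cells (limma, log2 fold change 0.99 with SE 0.13, n = 2, adjusted p = 0.00758). In shSnail against shGFP its log2 fold change was -0.36, with a 95% interval from -0.74 to 0.03 (limma adjusted p = 0.165). Without background subtraction it passed in shSnail cells as well, at -0.39 (limma adjusted p = 0.0459). The shLoxl2 call ended with the scanner software's ratios, at a log2 fold change of 1.01 (limma adjusted p = 0.0579).

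Biglycan, a small leucine-rich proteoglycan, did not pass in either silenced group. The Bgn probe (chromosome X, 69745935 to 69745994, plus strand, mm8) had log2 ratios of 0.22 and 0.20 on the shSnail arrays. On the shLoxl2 arrays they were 0.48 and 0.89 in Cy5 and -0.47 and -0.53 in Cy3. The ratios followed the dye, whose effect on this probe was 0.59, and its log2 fold change in shSnail cells was -0.39 with that effect removed in full and 0.21 without removal. In shLoxl2 cells it was 0.09 (limma adjusted p = 0.636). Periostin, a fasciclin-domain protein of collagen-rich matrix, was dim. The Postn probe (chromosome 3, 54478490 to 54478549, plus strand, mm8) did not stand well above background on the shSnail arrays, whichever the channel, so no fold is given there. On the shLoxl2 arrays its log2 ratios ran from -1.04 to 0.35, and its log2 fold change was -0.32 (limma adjusted p = 0.303).

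Of the 10 probes, 0 rose and 6 fell in shSnail cells by limma, where 8.81% of all tested probes rose and 12.6% fell, 21.4% together. In shLoxl2 cells 1 rose and 3 fell, where 8.08% of all tested probes rose and 5.85% fell, 13.9% together. The median log2 fold change of the 10 probes was -1.44 in shSnail cells, Postn included, against -0.04 over all tested probes. In shLoxl2 cells it was -0.21, against -0.01 over all tested probes. The members were chosen with earlier results of these data known, so these medians are no test. Both comparisons share the shGFP control, so the falls of Tnc, Sparc and Fstl1 in each are not independent. The 6 shSnail calls held with no removal of the dye effect and with a removal scaled to the shSnail arrays. Over tested probes the slope of the shSnail ratios on the dye effect was 0.45. The correlation of the shSnail log2 fold changes with the dye effect was 0.36 without removal and -0.42 after full removal, so the fully corrected shSnail values carry an inverse dye effect. The median SD between replicates was 0.11 log2 units in shSnail and 0.17 in shLoxl2, and the fit gave both groups 1 estimate of the spread. On simulated data this fit made false calls in shLoxl2 against shGFP at several times the nominal rate, so its adjusted p-values and the share of probes called there are not nominal. With the spread of shLoxl2 alone, Tnc (NM_011607), Sparc, Fstl1 and Fbln2 still passed (limma adjusted p between 1.64e-05 and 0.0167), and the AK048765 probe of Tnc passed as well (limma adjusted p = 0.0443). That fit has 2 values per probe, and its adjusted p followed the size of the log2 fold change over all 10 probes. A probe's own spread thus weighed little, and this fit was not checked on simulated data.

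**Figure D3:**
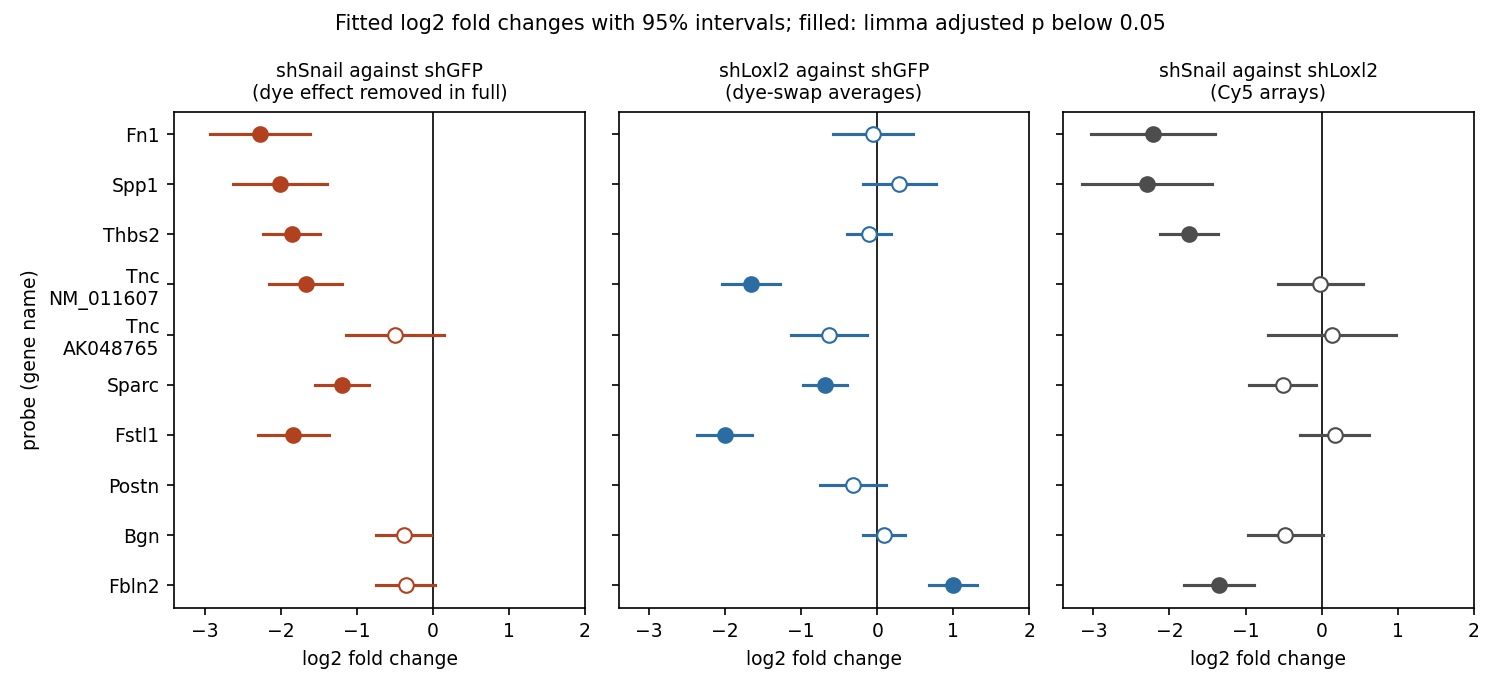
Fitted log2 fold change (points) with its 95% interval (lines) for each probe in 3 comparisons, filled where the limma adjusted p was below 0.05. Fn1, Spp1 and Thbs2 are near -2 in shSnail against shGFP and near 0 in shLoxl2 against shGFP, while Tnc (NM_011607) and Fstl1 are low in both. Postn, not well above background on the shSnail arrays, is drawn for shLoxl2 against shGFP only.

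shSnail was then compared with shLoxl2 directly, on the 4 arrays that carried silenced RNA in Cy5, which asks where the responses to the hairpins differed. The dye effect cancels there only as far as it was equal in both groups, and the shSnail ratios had a slope of 0.45 on it. Of the 10 probes 4 were lower and 0 higher in shSnail cells, where 8.56% of all tested probes were lower and 4.24% higher, 12.8% together. Fn1 was 4.66-fold lower in shSnail than in shLoxl2 cells relative to shGFP (log2 difference -2.22, SE 0.32, n = 2 each, limma adjusted p = 0.0214). Thbs2 was 3.35-fold lower (-1.74, SE 0.15, limma adjusted p = 0.0148), and Fbln2 was 2.55-fold lower (-1.35, SE 0.18, limma adjusted p = 0.0196). With the dye effect scaled to the shSnail arrays, the differences were -2.30 for Fn1, -1.64 for Thbs2, -1.26 for Fbln2 and -2.71 for Spp1. Each passed (limma adjusted p from 0.00299 to 0.00581). For Spp1 the fitted difference on the Cy5 arrays was -2.29 (SE 0.34, limma adjusted p = 0.0215). Since its shLoxl2 channel was saturated on both arrays, its normalized intensity gives only a bound, at least 3.52-fold lower in shSnail cells, from mean log2 intensities of 13.4 in shSnail and 15.2 in shLoxl2 channels. This bound compares channels of different arrays, scanned on different days. All 4 calls ended when either shSnail array was left out, with limma adjusted p from 0.0784 to 0.13, while the log2 differences then ran from -2.51 for Spp1 to -1.19 for Fbln2.

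For the members that fell in both silenced groups no difference passed. Tnc by the NM_011607 probe differed by -0.01, with a 95% interval from -0.57 to 0.54 on the log2 scale. Fstl1 differed by 0.17, with an interval from -0.28 to 0.62, and by -0.40 without background subtraction. Sparc differed by -0.51, with an interval from -0.95 to -0.07 (limma adjusted p = 0.115), and passed without background subtraction (limma adjusted p = 0.0306). These intervals do not show that the hairpins acted alike on these genes.

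**Figure D4:**
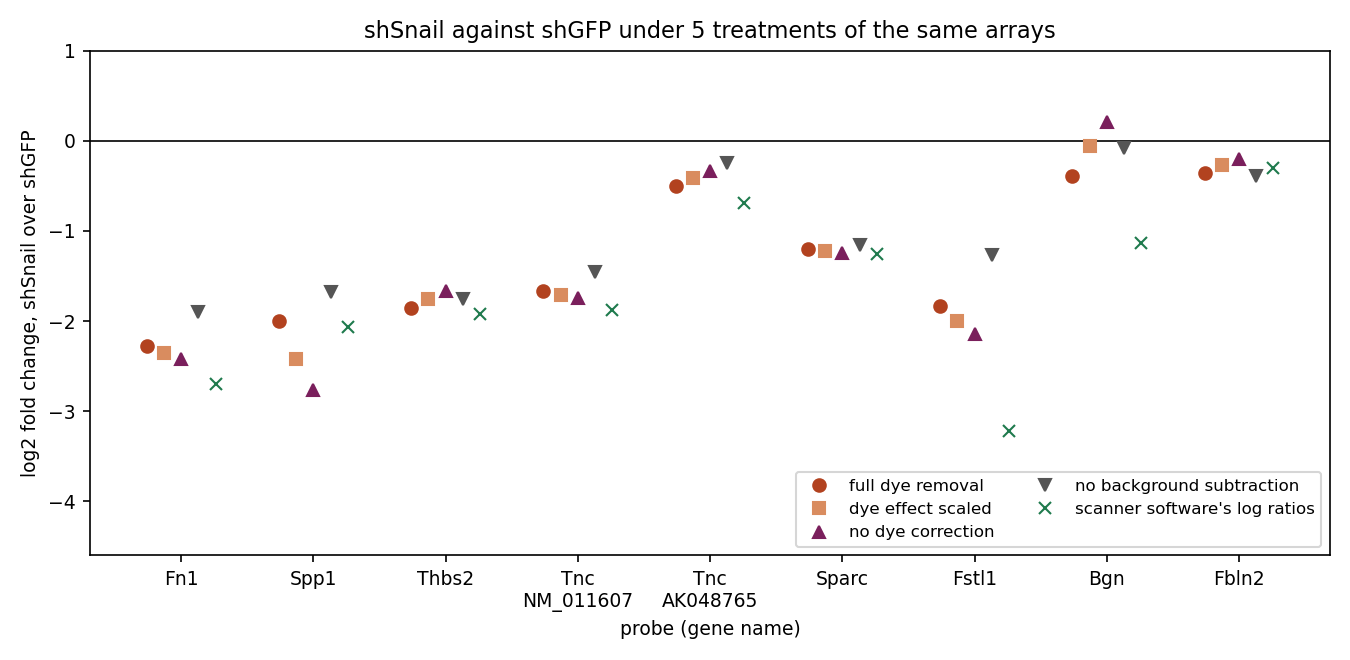
Log2 fold change of shSnail over shGFP for each probe under 5 treatments of the same arrays (symbols). Fn1, Spp1, Thbs2, Tnc (NM_011607), Sparc and Fstl1 stay below -1 under all 5, Fstl1 spreads from -1.27 to -3.22, and Bgn lies on both sides of 0. Postn, not well above background on these arrays, is not drawn.

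Related genes of the matrix were taken from lists by family. Of all tested probes, 8.81% rose and 12.6% fell in shSnail cells, and 8.08% rose and 5.85% fell in shLoxl2 cells. The counts in these small lists were not tested against those shares. In the CCN family of matricellular proteins, 1 of 5 tested genes rose in shSnail cells and 2 rose in shLoxl2 cells, with none falling in either by limma. Cyr61 (Ccn1), an integrin ligand, rose by a log2 fold change of 1.80 in shSnail cells (SE 0.30, limma adjusted p = 0.00939). In shLoxl2 cells Wisp1 (Ccn4) had 0.95 (limma adjusted p = 0.00631) and Ctgf (Ccn2) 0.50 (limma adjusted p = 0.0481). Ctgf had 0.17 in shSnail cells (limma adjusted p = 0.498), and it passed there without the dye removal (0.51, limma adjusted p = 0.0251). Of 26 other matricellular and adhesive glycoproteins, 4 rose and 1 fell in shSnail cells, and 2 rose and 0 fell in shLoxl2 cells. Mfge8, an adhesive milk fat globule protein that binds αv integrins, rose in both, by 1.46 in shSnail cells (limma adjusted p = 0.00163) and 0.85 in shLoxl2 cells (limma adjusted p = 0.00745). The other rises in shSnail cells, Comp, Nid2 and Tnn, did not pass without the dye removal, where their log2 fold changes were -0.09, -0.32 and 0.09. Comp was not well above background on either shSnail array. The gene that fell, Matn2, was named after its value was seen (-1.14, limma adjusted p = 0.0452), and it did not pass without the dye removal either (-0.70, limma adjusted p = 0.0675).

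Among 17 tested fibulins and elastic fibre glycoproteins, 0 rose and 3 fell in shSnail cells, where 8.81% of all tested probes rose and 12.6% fell. In shLoxl2 cells 2 of these genes rose and 1 fell, where 8.08% of all tested probes rose and 5.85% fell. Ltbp4, a latent TGF-beta binding protein, fell in both, by 1.07 on the log2 scale in shSnail cells and by 0.88 in shLoxl2 cells. Ltbp1, of the same family, had a log2 fold change of -0.87 in shSnail and 0.69 in shLoxl2 cells, a difference of -1.57 (limma adjusted p = 0.0171). Of 13 tested collagens, 0 rose and 2 fell in shSnail cells and 1 rose in shLoxl2 cells. Col5a1, a chain of the fibril-regulating collagen V, had -1.92 in shSnail cells (SE 0.14, limma adjusted p = 0.00127) and 1.04 in shLoxl2 cells (SE 0.11, limma adjusted p = 0.00432). The log2 difference was -2.97 (limma adjusted p = 0.0049). Of 13 tested proteoglycans, 3 rose and 1 fell in shSnail cells and 1 rose in shLoxl2 cells. Agrn, a basement membrane proteoglycan, had -0.92 in shSnail cells and 0.64 in shLoxl2 cells, while the rises of Kera, Bcan and Omd in shSnail cells did not pass without the dye removal.

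Of 19 tested receptors of the members, 2 rose and 4 fell in shSnail cells, where 8.81% of all tested probes rose and 12.6% fell. In shLoxl2 cells 2 receptors rose and 1 fell, where 8.08% of all tested probes rose and 5.85% fell. Sdc4, a heparan sulfate proteoglycan and fibronectin co-receptor, fell by 1.81 on the log2 scale in shSnail cells (limma adjusted p = 0.0106). The brightest Itgav probe fell by 1.77 (limma adjusted p = 0.00372), whereas the other Itgav probe had -0.07 (limma adjusted p = 0.82), and Itgav encodes the αv integrin chain that binds fibronectin and osteopontin. Lrp1 and Itgb3, named after their values were seen, had -1.47 and -0.83, and Itgb3 did not pass without the dye removal (-0.35, limma adjusted p = 0.118). The rises of Itga4 and Itgb8 in shSnail cells depended on the dye removal. Without it Itga4 passed as a fall, at a log2 fold change of -0.65 (limma adjusted p = 0.0123). Itgb8 then had -0.26 (limma adjusted p = 0.271). With a scaled removal neither passed, at 0.11 for Itga4 (limma adjusted p = 0.618) and 0.40 for Itgb8 (limma adjusted p = 0.17). In shLoxl2 cells Tlr4, an innate immune receptor, had 1.25 and Itgb5 had 0.91, and Sdc2 had -0.76. Itgb5 had 0.54 in shSnail cells (limma adjusted p = 0.0811). It passed there with a scaled dye removal (0.59, limma adjusted p = 0.026) and with none (0.63, limma adjusted p = 0.0207). The list medians lay between -0.22 and 0.17 in shSnail cells and between -0.15 and 0.16 in shLoxl2 cells, near the -0.04 and -0.01 of all tested probes.

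**Figure D5:**
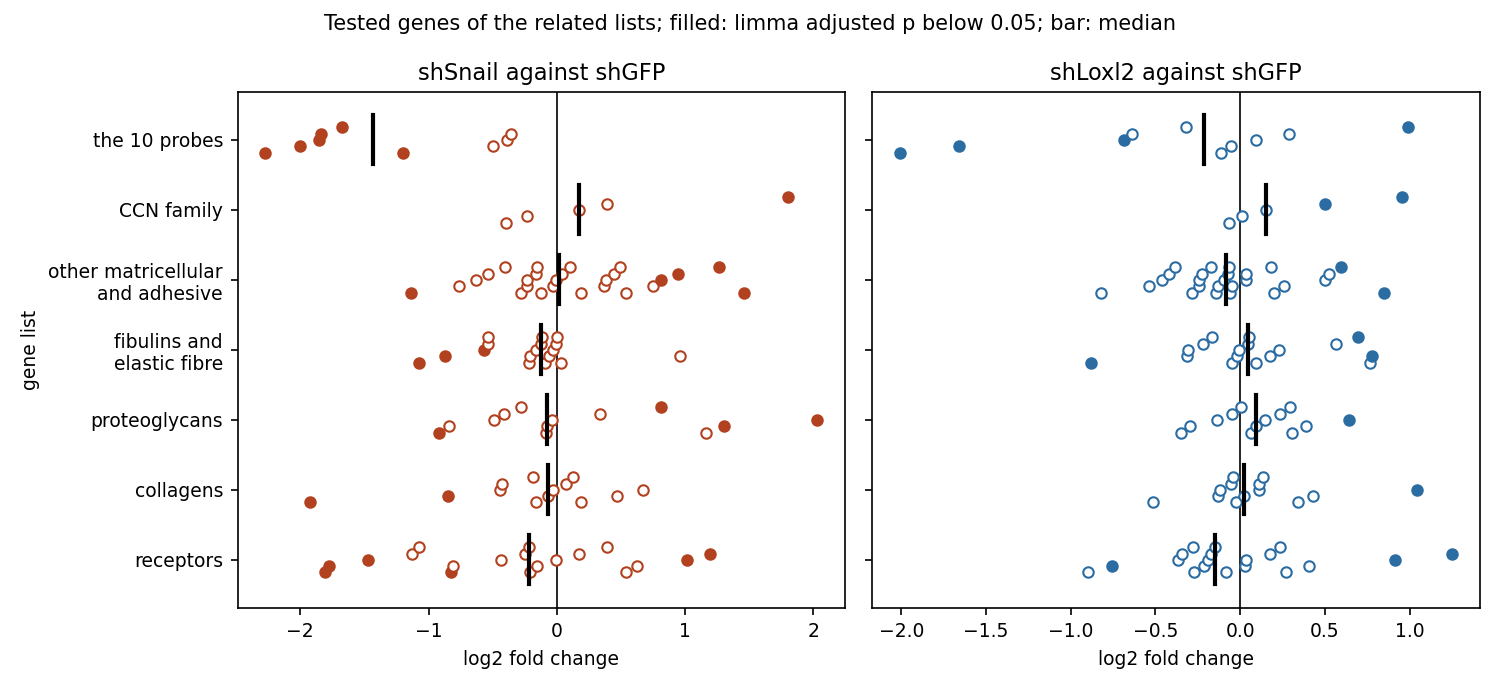
Log2 fold change of each tested gene (points) of the 10 probes and 6 related lists, shSnail against shGFP on the left and shLoxl2 against shGFP on the right, filled where the limma adjusted p was below 0.05, with a bar at each median. Postn, dim on the shSnail arrays, is not drawn there but counts in the median. The median of the 10 probes is -1.44 in shSnail cells, and those of the lists lie between -0.22 and 0.17. Members and lists were chosen with earlier results of these data known, so this difference is no test.

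For each of the 7 genes that passed anywhere, the probe of another named gene with the most similar pattern was found as the smallest root mean square difference of log2 ratios over the 6 arrays, among 14108 probes. Fbln2 lay closest to Slc29a1 (0.11 log2 units), Sparc to Mycbp2 (0.11), Tnc to Il24 (0.15), Thbs2 to Irf2bpl (0.16) and Fstl1 to Il11 (0.21). Fn1 lay closest to Hells (0.29) and Spp1 to Zfp74 (0.46), the widest of these distances.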

How the data were processed

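Spot intensity values of both channels and log10 ratios of Cy5 over Cy3 were deposited by the authors from Agilent Feature Extraction. Its version is 9.5.1.1 in the file headers and 6.1.1 in the submitters' processing notes. The value table, also deposited by the authors, repeats those log10 ratios within 0.006 at 100% of rows, except the column of shSnail replicate 2, which matched its own scanner file at 9.37% of rows. That column had the same median log10 ratio as the column of shSnail replicate 1, 0.0371, and shSnail replicate 2 was read from its scanner file. The value table served as an alternative only, holding 1 usable shSnail array.

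Mean intensities were corrected by normexp (offset 50) and normalized by loess within arrays in limma 3.58.1 (R 4.3.3, data.table version 1.17.8), giving no weight to outliers and the 736 control spots. Averaging the 21318 other spots gave 20868 probes. RefSeq accessions named 14711 probes and the files 6157. shLoxl2 was tested on dye-swap averages. For shSnail, each probe's dye effect from the shLoxl2 pairs was removed in full. The direct comparison of both silenced groups used the Cy5 arrays. P-values were adjusted by Benjamini-Hochberg over all tested probes, at 0.05. On simulated data, false calls in shLoxl2 against shGFP exceeded that threshold, and the fit shares its spread with the less variable shSnail arrays. Estimates from simulated data were unbiased, but this does not carry over to the measured shSnail values. After full removal, the measured shSnail log2 fold changes still correlated with the dye effect at -0.42 over tested probes.

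Genes named were all members, both targeted genes and, per list and comparison, up to 4 genes past the threshold by smallest p, by the brightest tested probe. Members and lists were chosen with earlier results of these data known. Replicate numbers of the silenced groups were not used as pairs: only 2 pairs exist, and their deviations correlated at 0.21.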

Additional observations from a re-analysis of the deposited data

Results flagged for a closer look

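In 4 members the change against shGFP differed between the silenced groups, by the test of the difference itself on the Cy5 arrays (limma, n = 2 each). The log2 difference, shSnail minus shLoxl2, was -2.22 for Fn1 (adjusted p = 0.0214), -1.74 for Thbs2 (adjusted p = 0.0148), -2.29 for Spp1 (adjusted p = 0.0215) and -1.35 for Fbln2 (adjusted p = 0.0196). The Spp1 value rests on a channel saturated on both shLoxl2 arrays. All 4 calls ended when either shSnail array was left out, where the log2 differences ran from -2.51 for Spp1 to -1.19 for Fbln2. With scanner ratios centred on each array's median, an alternative chosen after seeing the data, only Thbs2 passed (limma adjusted p = 0.0422). Scan day and group cannot be told apart in any of the 4 members, and the dye effect cancels only as far as it was equal in both groups.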

How the results depend on the processing

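Against shGFP, 4226 probes were called in shSnail and 2751 in shLoxl2 cells, and 2527 in shSnail against shLoxl2. In shLoxl2 against shGFP 776 were called from the scanner software's ratios and 856 with those centred on each array's median, an alternative chosen after seeing the data, with 2 member probes called in each. It was 7636 on the Cy5 arrays alone, with 6 member probes called, and 6712 on the Cy3 arrays alone, with 7. These single-dye ratios still hold the dye effect. Bgn passed upward on the Cy5 arrays (0.68, limma adjusted p = 0.0171) and downward on the Cy3 arrays (-0.50, limma adjusted p = 0.029). Spp1, with a saturated channel, passed upward on the Cy3 arrays (1.05, limma adjusted p = 0.0134). With the authors' value table, limma called 0 probes and 0 members in shLoxl2 cells (3476 probes at an unadjusted p below 0.05) and 0 and 0 in shSnail cells (5608). That table held 1 usable shSnail array, so the spread came from the shLoxl2 arrays alone and the shSnail sample was assumed to vary like them. Leaving out 1 replicate gave 1747 to 2806 calls in shLoxl2, 1585 to 3173 in shSnail and 39 to 4308 in shSnail against shLoxl2, where the count of member probes ran from 0 to 6. Centred scanner ratios left 1 member probe in that comparison, Thbs2, and gave Fn1 an adjusted p of 0.0561. In shSnail against shGFP, 6217 probes were called with no dye correction and 4580 with a scaled one, with 6 members in each, and without background subtraction 7 members were called there. The replicate block gave 2720 calls and 4 member probes in shSnail against shLoxl2, and changed no member's call.

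Values that changed sign did so mostly where the main value was near 0. In shLoxl2 cells, leaving out 1 replicate gave Fn1 -0.45 to 0.34, Thbs2 -0.23 to 0.011, Postn -0.65 to 0.018 and Spp1 -0.046 to 0.63. On the Cy5 arrays alone Thbs2 had 0.076 and Spp1 -0.47, and on the Cy3 arrays alone Fn1 had 0.10, Postn 0.044 and Bgn -0.50. In shSnail cells, Bgn had 0.21 without dye correction, and the fitted value of Postn, which is no measured fold there, was -0.14. In shSnail against shLoxl2, Tnc (NM_011607) had 0.011 with scanner ratios, 0.19 with centred ones and -0.21 to 0.18 with 1 replicate left out. Tnc (AK048765) had -0.00076 without background subtraction and -0.25 to 0.52 with 1 replicate left out, and Fstl1 had -0.40 without background subtraction. The causes were not tested.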
